A study of Mus musculus with 6 samples.

Results

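Tet1, Tet2 and Tet3, Tdg, and Idh1 and Idh2 were taken by name from the gene symbols of the deposited tables, and they are 6 of the 20325 genes listed there. They were followed through 6 RNA sequencing libraries of mouse pre-iPSCs, cells that started reprogramming from fibroblasts towards pluripotency and stopped part of the way. Libraries came from cells given an siRNA against Tet1 (siTet1), from cells given a control siRNA and from untransfected cells, each in the lines pre3 and pre2-2, with 1 library for each line and treatment. All 6 libraries shared the rest: cells of OG2 mice (a transgenic strain in which the Pou5f1 promoter drives GFP) on a mixed 129SVJ, C57B6 and CBA background, passage 10, and culture in mES medium with added LIF and vitamin C at 50 µg/ml. There was therefore no library without vitamin C. The labels differ on timing, with vitamin C added 16 h after transfection and RNA taken 32 h after that in the series text, and RNA taken 48 h after transfection and after 36 h in vitamin C in the sample text. They also name the siRNA target as Tet in one field and Tet1 in others, and the cells as MEFs in one field and pre-iPSCs in another. Each line is a single line, and no label says whether its 3 libraries came from separate cultures, so the p-values may measure technical spread.

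TET enzymes oxidise 5-methylcytosine in DNA to 5-hydroxymethylcytosine and then to 5-formylcytosine and 5-carboxylcytosine. Tdg, thymine DNA glycosylase, cuts out the last pair of these bases, and base excision repair then restores an unmodified cytosine. TET enzymes use iron and 2-oxoglutarate, and vitamin C raises their activity. Isocitrate dehydrogenases make 2-oxoglutarate from isocitrate, Idh1 in the cytosol and peroxisomes and Idh2 in mitochondria. In mouse embryonic stem cells Tet1 and Tet2 are the main TET genes, whereas Tet3 is best known from the oocyte and zygote.

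TET proteins act on CG sites, so the CG content of the members' own promoters is shown for the siRNA target, Tet1, and for the members that were higher in pre3 than in pre2-2, Tet2 and Idh2. Each sequence is the 250 bases just before the gene's start in RefSeq on GRCm38.p6, 5′ to 3′ on the gene's strand, which is the minus strand for all 3, with every CG in capitals. The windows are chr10:62887325-62887574 for Tet1, chr3:133544391-133544640 for Tet2 and chr7:80115351-80115600 for Idh2.
Tet1: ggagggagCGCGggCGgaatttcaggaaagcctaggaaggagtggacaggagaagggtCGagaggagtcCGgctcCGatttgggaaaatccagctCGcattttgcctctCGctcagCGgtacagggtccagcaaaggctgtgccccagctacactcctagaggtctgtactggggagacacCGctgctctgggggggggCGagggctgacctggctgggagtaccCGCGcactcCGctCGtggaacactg
Tet2: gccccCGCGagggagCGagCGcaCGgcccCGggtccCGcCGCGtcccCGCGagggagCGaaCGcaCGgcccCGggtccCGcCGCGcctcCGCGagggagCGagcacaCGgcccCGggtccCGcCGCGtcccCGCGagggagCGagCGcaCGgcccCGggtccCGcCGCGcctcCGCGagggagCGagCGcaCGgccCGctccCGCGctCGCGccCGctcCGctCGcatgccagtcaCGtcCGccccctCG
Idh2: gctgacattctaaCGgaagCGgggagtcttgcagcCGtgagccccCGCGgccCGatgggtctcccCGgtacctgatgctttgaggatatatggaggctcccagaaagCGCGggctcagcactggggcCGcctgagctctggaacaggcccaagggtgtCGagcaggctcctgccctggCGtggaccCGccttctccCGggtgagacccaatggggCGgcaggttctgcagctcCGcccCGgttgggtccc
The motif searched was CG, which reads the same on both strands. The Tet2 window held 51 CG, the Idh2 window 17 and the Tet1 window 15. All 6 members matched the RefSeq table, in which 92.1% of 32851 such windows held at least 1 CG and the median was 6. As many CG as in the Tet2 window were found in 0.067% of windows, as many as in the Idh2 window in 23.5% and as many as in the Tet1 window in 27.3%. Tet3 had 17, Tdg had 19, and the 2 starts of Idh1 had 18 and 22. No methylation was measured here, and the counts describe the sequence only.

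The libraries held 1868640 to 2582803 expected counts, which are RSEM's estimates of the reads from each gene, and a level of 3 counts corresponded to 1.16 to 1.61 CPM of the unscaled library total, while CPM levels of genes below use the TMM-scaled total. Levels are given in TPM, a gene's share of all transcripts, which allows for transcript length. Differences are log2 values fitted to the counts of all 6 libraries, with their standard error (SE); each treatment has 2 libraries and each line 3. A gene was called where its adjusted p fell under 0.05 over the 11048 genes tested. To check the label pre-iPSC, markers were read, with Pou5f1 at 1630 to 9358 TPM and Sox2 at 307 to 410 TPM. The late pluripotency gene Nanog was listed at 0 in 1 library and reached at most 5.60 TPM. Zfp42 reached at most 6.53 TPM and Esrrb at most 0.709 TPM. Other pluripotency markers stood higher, with Tdgf1 at 503 to 974 TPM and Dppa5a at 37.4 to 389 TPM. The lines stood apart. Summed over 10 pluripotency markers, pre3 libraries held 9831 to 10946 TPM and pre2-2 libraries 2711 to 3498 TPM. Most of that sum was Pou5f1, at 8677 to 9358 TPM in pre3 and 1630 to 1826 TPM in pre2-2. Pou5f1 and Sox2 are also reprogramming factors, and counts per gene do not tell a transgene's transcripts from those of the cells' own gene. Whether transgenes contributed was not tested. Of the 7 pluripotency markers tested, 3 were called higher and 3 lower in pre3. Over 10 fibroblast markers pre3 held 1718 to 2038 TPM and pre2-2 3048 to 4985 TPM, with Lum at 0 in 3 libraries. Of 8 endothelial and blood markers the sum was 19.9 to 54.1 TPM, with Hbb-b1 at 0 in all 6 libraries. The sum of 12 interferon response genes was 82.8 and 259 TPM with siTet1, 167 and 881 TPM with control siRNA and 32.3 and 145 TPM in untransfected cells, with pre3 given before pre2-2 in each pair.

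Tet1 fell with siTet1 in both lines. It was at 22.7 TPM in pre3 and 23.3 TPM in pre2-2 with siTet1, at 36.0 TPM in pre3 and 36.9 TPM in pre2-2 with control siRNA, and at 27.7 TPM in pre3 and 36.3 TPM in pre2-2 in untransfected cells. Both siTet1 libraries lay below all 4 others, and the untransfected pre3 library lay nearest to them. These levels rest on 298 and 329 expected counts with siTet1, 470 and 486 with control siRNA and 399 and 644 in untransfected cells, pre3 before pre2-2. Against control siRNA the difference was -0.67 (SE 0.13, 95% interval -0.93 to -0.40, 0.629-fold, edgeR adjusted p = 0.0043). Tet1 was the only one of the 6 genes called in that comparison, in which 1.58% of all genes were called, 1.15% higher and 0.434% lower. Other lists moved with it: of the interferon response genes 9 of 10 tested fell in the same comparison, and of the pluripotency markers 3 of 7 tested were higher. Their part in the Tet1 difference was not tested. Within lines, the ratio of counts gave -0.64 in pre3 (95% counting interval -0.86 to -0.43) and -0.68 in pre2-2 (-0.89 to -0.47). In bulk RNA, fewer cells with Tet1 mRNA and less Tet1 mRNA per cell cannot be told apart.

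The call of Tet1 depended on single libraries and on the tool. It was lost on leaving out siTet1 of pre2-2 (-0.57, adjusted p = 0.316) or control siRNA of pre3 (-0.60, adjusted p = 0.229), and also with DESeq2 (adjusted p = 0.103) and with limma on log2(TPM + 1) (adjusted p = 0.248). A model of treatment alone, with no term for the line, gave an adjusted p of 1.00.

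Against untransfected cells Tet1 also fell, by 0.54 (SE 0.13, 95% interval -0.81 to -0.28, 0.687-fold, edgeR adjusted p = 0.00951). The comparison uses the same siTet1 libraries as the one against control siRNA. In pre3 the difference between siTet1 and untransfected cells was -0.33 (95% counting interval -0.55 to -0.11) and in pre2-2 it was -0.70 (-0.89 to -0.50), with 1 library of each kind per line. Leaving out the pre2-2 library of siTet1 (-0.45, adjusted p = 0.404) or that of untransfected cells (-0.37, adjusted p = 0.115) ended the call. So did DESeq2 (adjusted p = 0.187), limma on log2(TPM + 1) (adjusted p = 0.244) and a model of treatment alone (adjusted p = 0.991). Control siRNA differed from untransfected cells in Tet1 by 0.13 (SE 0.12, 95% interval -0.13 to 0.38, adjusted p = 0.871). By line it was 0.32 in pre3 (95% counting interval 0.12 to 0.51) and -0.02 in pre2-2 (-0.19 to 0.15). Between the lines Tet1 differed by -0.08 (SE 0.10, 95% interval -0.29 to 0.13, adjusted p = 0.614).

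**Figure D1:**
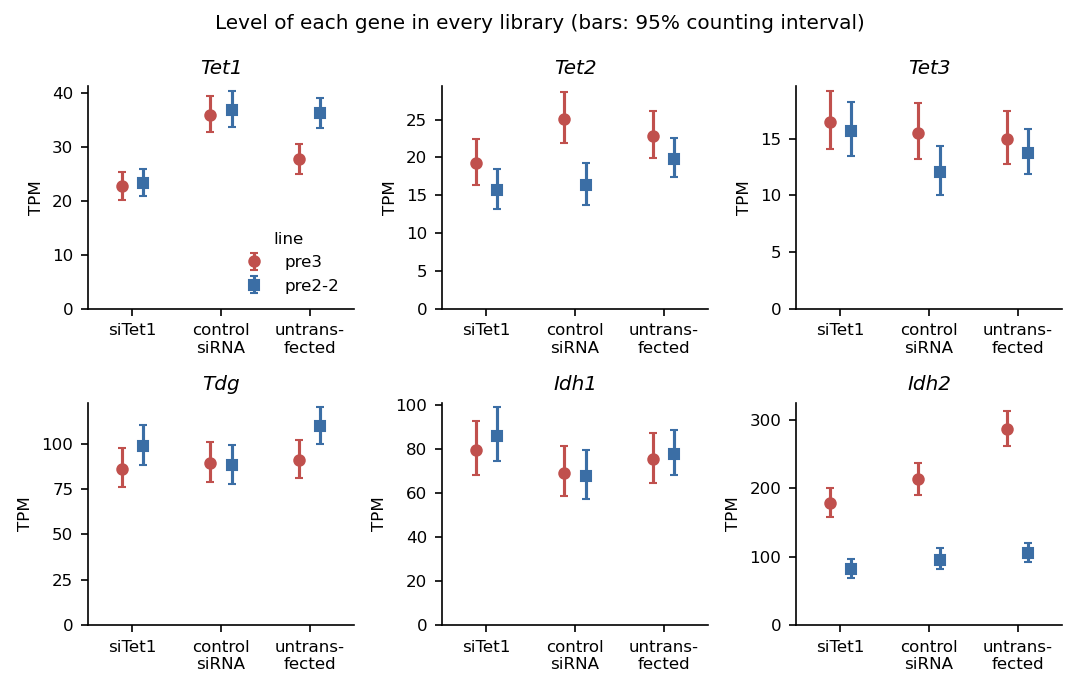
Level of each of the 6 genes in TPM (vertical axis, 1 panel per gene) in the siTet1, control siRNA and untransfected libraries of pre3 and pre2-2, with bars for the 95% counting interval. Tet1 was lowest in both siTet1 libraries (22.7 and 23.3 TPM), and Idh2 was 178 to 287 TPM in pre3, above the 81.8 to 105 TPM of pre2-2.

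Tet2, the family member that lacks the CXXC DNA-binding domain in its own protein, was called between the lines, and for no treatment with all 6 libraries. It was at 19.2 TPM in pre3 and 15.7 TPM in pre2-2 with siTet1, at 25.1 TPM in pre3 and 16.3 TPM in pre2-2 with control siRNA, and at 22.9 TPM in pre3 and 19.8 TPM in pre2-2 in untransfected cells. The pre3 library was the higher one in each of the 3 treatments, although the siTet1 library of pre3 lay just under the untransfected library of pre2-2. Tet2 was 0.45 higher in pre3 (SE 0.12, 95% interval 0.20 to 0.70, 1.36-fold, edgeR adjusted p = 0.00666), and treatment by treatment the difference was 0.39 with siTet1, 0.67 with control siRNA and 0.28 in untransfected cells. Its call ended without either control siRNA library (0.35 without that of pre3 and 0.33 without that of pre2-2), with DESeq2 (adjusted p = 0.120), with limma on log2(TPM + 1) (adjusted p = 0.145) and with the treatment left out of the model (adjusted p = 0.0589). Of the 6 genes, Tet2 and Idh2 were called between the lines, which is a share close to that of all genes, since 30.2% were called, 14.4% higher and 15.8% lower in pre3. The pluripotency marker sum, mostly Pou5f1, and the fibroblast marker sum also differed between the lines. Of 7 pluripotency markers tested, 3 were higher and 3 lower in pre3, and 9 of 9 fibroblast markers tested were lower. Of the interferon response genes, 9 of 10 tested were lower in pre3. Their part in the Tet2 and Idh2 differences was not tested.

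With siTet1, Tet2 differed by -0.24 from control siRNA (SE 0.15, 95% interval -0.56 to 0.08, adjusted p = 0.621) and by -0.37 from untransfected cells (SE 0.15, 95% interval -0.68 to -0.06, adjusted p = 0.153). Neither interval reached above 0.08. Without the pre3 untransfected library, Tet2 was called lower against untransfected cells (-0.50, adjusted p = 0.0265). Control siRNA differed from untransfected cells by -0.13 (SE 0.15, adjusted p = 0.894).

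Tet3, the family member known from the zygote, had the lowest median level of the 6 genes. It was at 16.5 TPM in pre3 and 15.7 TPM in pre2-2 with siTet1, at 15.5 TPM in pre3 and 12.1 TPM in pre2-2 with control siRNA, and at 15.0 TPM in pre3 and 13.7 TPM in pre2-2 in untransfected cells. In TPM the siTet1 libraries were the highest 2 of the 6, by a small margin over the control siRNA library of pre3. In CPM, the scale of the fitted differences, Tet3 in the siTet1 library of pre2-2 (81.0) lay below control siRNA (84.2) and untransfected cells (86.2) of pre3. The difference between siTet1 and control siRNA was 0.23 (SE 0.15, 95% interval -0.09 to 0.54, adjusted p = 0.651), and that between siTet1 and untransfected cells was 0.10 (SE 0.15, 95% interval -0.21 to 0.41, adjusted p = 0.782). Its levels rest on 124 to 190 expected counts. Between the lines the difference was 0.26 (SE 0.12, adjusted p = 0.117), and between control siRNA and untransfected cells it was -0.13 (SE 0.15, adjusted p = 0.900).

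Taken over the family, the siTet1 libraries held the least TET mRNA. The summed TPM of Tet1, Tet2 and Tet3 was 58.5 in pre3 and 54.7 in pre2-2 with siTet1, 76.6 in pre3 and 65.3 in pre2-2 with control siRNA, and 65.6 in pre3 and 69.8 in pre2-2 in untransfected cells. Both siTet1 libraries were below the other 4. The mean sum was 56.6 ± 2.65 TPM with siTet1, against 71.0 ± 8.00 TPM with control siRNA and 67.7 ± 2.96 TPM in untransfected cells (SD, n = 2 each). A two-sided exact permutation test gave p = 0.333 for siTet1 against each of them, the smallest it can give for 2 libraries against 2. Since Tet1 is itself part of the sum, Tet2 and Tet3 were also added without it. They came to 35.7 TPM in pre3 and 31.4 TPM in pre2-2 with siTet1, 40.6 and 28.4 TPM with control siRNA and 37.9 and 33.6 TPM in untransfected cells, so the siTet1 libraries lay within the range of the others.

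Tet1 made up 38.9% of the family sum in pre3 and 42.6% in pre2-2 with siTet1, 47.0% and 56.5% with control siRNA, and 42.3% and 51.9% in untransfected cells, pre3 before pre2-2. Within each line the share was lowest with siTet1. Across lines, the siTet1 libraries overlapped with the untransfected ones in TPM, with means of 40.8 ± 2.66% and 47.1 ± 6.83% (SD, n = 2 each, exact permutation p = 0.667, which takes no account of the line). In CPM, which is not scaled by length, the groups did not overlap, but siTet1 of pre2-2 lay barely below untransfected pre3. The means were 49.0 ± 2.63% with siTet1 and 55.7 ± 6.72% in untransfected cells (n = 2 each, exact permutation p = 0.333). The siTet1 libraries lay below the control siRNA libraries in TPM, at 51.8 ± 6.74% (p = 0.333 by the exact permutation test). Tet3 made up 28.3 and 28.7% with siTet1, 20.3 and 18.5% with control siRNA, and 22.8 and 19.7% in untransfected cells. The ratio of Tet1 to Tet3 was 1.38 and 1.48 with siTet1, 2.32 and 3.06 with control siRNA, and 1.85 and 2.64 in untransfected cells. It was thus lowest in both siTet1 libraries. As Tet1 enters each share and the ratio, a fall of Tet1 alone moves them, and Tet3 itself was not called with siTet1.

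**Figure D2:**
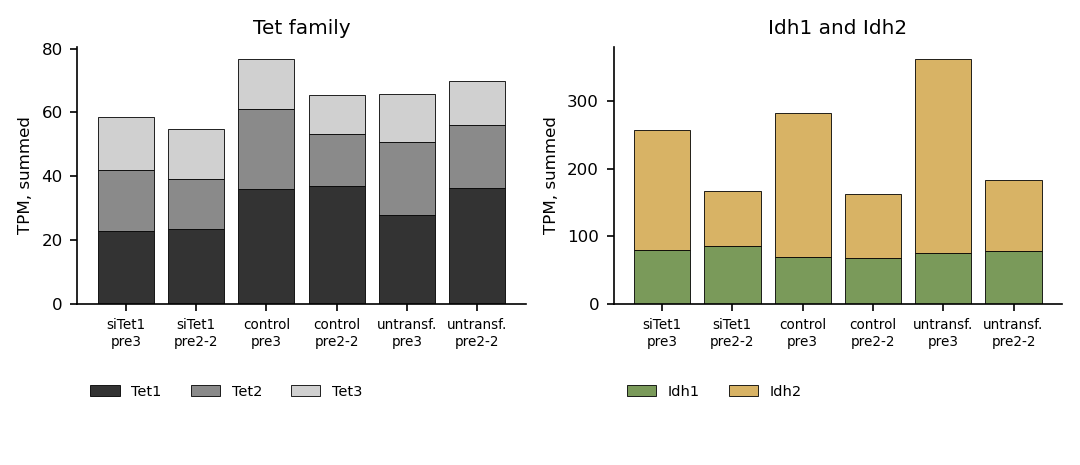
Stacked TPM of Tet1, Tet2 and Tet3 (left) and of Idh1 and Idh2 (right) in each library. The TET sum was 58.5 and 54.7 TPM with siTet1, against 65.3 to 76.6 TPM in the other 4 libraries, and the Idh2 part was larger in pre3.

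Tdg, the glycosylase of the pathway, was not called in any comparison. It was at 86.2 TPM in pre3 and 98.7 TPM in pre2-2 with siTet1, at 89.4 TPM in pre3 and 88.1 TPM in pre2-2 with control siRNA, and at 91.0 TPM in pre3 and 109.8 TPM in pre2-2 in untransfected cells. The highest library was 1.27 times the lowest. Tdg differed by 0.05 between siTet1 and control siRNA (SE 0.13, 95% interval -0.23 to 0.32, adjusted p = 0.945), by -0.18 between siTet1 and untransfected cells (SE 0.13, adjusted p = 0.495), and by -0.08 between pre3 and pre2-2 (SE 0.11, adjusted p = 0.632). Control siRNA differed from untransfected cells by -0.23 (SE 0.13, adjusted p = 0.665), with -0.07 in pre3 and -0.35 in pre2-2. Its counts are uncertain. In GENCODE M21, 41.2% of the 50-base words of Tdg transcripts also occur in 5 other genes, among them the pseudogene Tdg-ps. Only Glt8d2, on the opposite strand, was among the genes counted, and it shares 5.72% of the words. The counting was not stated to use strand. Counts of Tdg were not whole in 3 libraries and those of Tet1 in all 6, although Tet1 shared only 0.462% of its words.

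Idh1, the cytosolic enzyme, was at 79.7 TPM in pre3 and 86.0 TPM in pre2-2 with siTet1, at 69.2 TPM in pre3 and 67.6 TPM in pre2-2 with control siRNA, and at 75.4 TPM in pre3 and 77.8 TPM in pre2-2 in untransfected cells. The siTet1 libraries were the 2 highest and the control siRNA libraries the 2 lowest. The difference between siTet1 and control siRNA was 0.27 (SE 0.15, 95% interval -0.04 to 0.58, adjusted p = 0.532) and was not called, and that between siTet1 and untransfected cells was 0.04 (SE 0.14, 95% interval -0.25 to 0.34, adjusted p = 0.912). Control siRNA differed from untransfected cells by -0.23 (SE 0.15, adjusted p = 0.729), and pre3 from pre2-2 by 0.04 (SE 0.12, 95% interval -0.21 to 0.28, adjusted p = 0.859).

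Idh2, the mitochondrial enzyme, differed most between libraries of the 6 genes, by 3.51 times between the highest and the lowest. It was at 178 TPM in pre3 and 81.8 TPM in pre2-2 with siTet1, at 213 TPM in pre3 and 95.7 TPM in pre2-2 with control siRNA, and at 287 TPM in pre3 and 105 TPM in pre2-2 in untransfected cells. Each pre3 library lay above each pre2-2 library. Idh2 was 1.33 higher in pre3 (SE 0.12, 95% interval 1.1 to 1.57, 2.52-fold, edgeR adjusted p = 1.53e-09). The ratio of the lines was 2.32 with siTet1, 2.31 with control siRNA and 2.87 in untransfected cells. The call held when each of the 6 libraries was left out in turn, with values from 1.21 to 1.40.

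Idh2 was also lower with siTet1 than in untransfected cells, by a log2 difference of -0.62 (SE 0.14, 95% interval -0.90 to -0.33, 0.652-fold, edgeR adjusted p = 0.00683). In that comparison Tet1 and Idh2 were called, 2 of the 6 genes, both lower, where 6.55% of all genes were called, 4.92% higher and 1.63% lower. By line the difference was -0.72 in pre3 (95% counting interval -0.94 to -0.51) and -0.42 in pre2-2 (-0.74 to -0.11). Against control siRNA the difference was -0.25 (SE 0.14, 95% interval -0.54 to 0.05, adjusted p = 0.579), and it was -0.23 in pre3 and -0.24 in pre2-2. Control siRNA itself differed from untransfected cells by -0.37 (SE 0.14, 95% interval -0.65 to -0.09, adjusted p = 0.287), with -0.49 in pre3 and -0.18 in pre2-2. The comparisons share libraries and are not independent. Leaving out the pre3 library of siTet1 (-0.52, adjusted p = 0.184) or that of untransfected cells (-0.44, adjusted p = 0.0549) ended the call against untransfected cells. So did DESeq2 (adjusted p = 0.197), limma on log2(TPM + 1) (adjusted p = 0.0755) and a model of treatment alone (adjusted p = 0.991). Against untransfected cells, 6 of 10 interferon response genes, 6 of 9 fibroblast markers and 3 of 7 pluripotency markers tested were higher with siTet1, and their part in the Idh2 and Tet1 differences was not tested.

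With all 6 libraries no member was called between control siRNA and untransfected cells, where edgeR called 1.48% of all genes, 1.38% higher and 0.0996% lower. At an unadjusted p under 0.05 there was 1 of the 6, Idh2, with edgeR and with limma voom and 0 with DESeq2. Of all 11048 genes, 1016, 1081 and 258 were under 0.05 with edgeR, limma voom and DESeq2. Without the pre2-2 untransfected library, Idh2 was called lower with control siRNA (-0.51, adjusted p = 0.0220). The difference of the siTet1 effect between the lines, with both other libraries of each line serving as its controls, was 0.17 for Tet1 (SE 0.24, 95% interval -0.36 to 0.69) and between -0.19 and -0.06 for the other 5 genes. The adjusted p was 1.00 for each of the 6. No gene of the 11048 was called, a share of 0%, with 270 at an unadjusted p under 0.05, and DESeq2 and limma voom called 0 as well. The interval for Tet1 covers a change that is 0.36 deeper to 0.69 shallower in pre3.

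**Figure D3:**
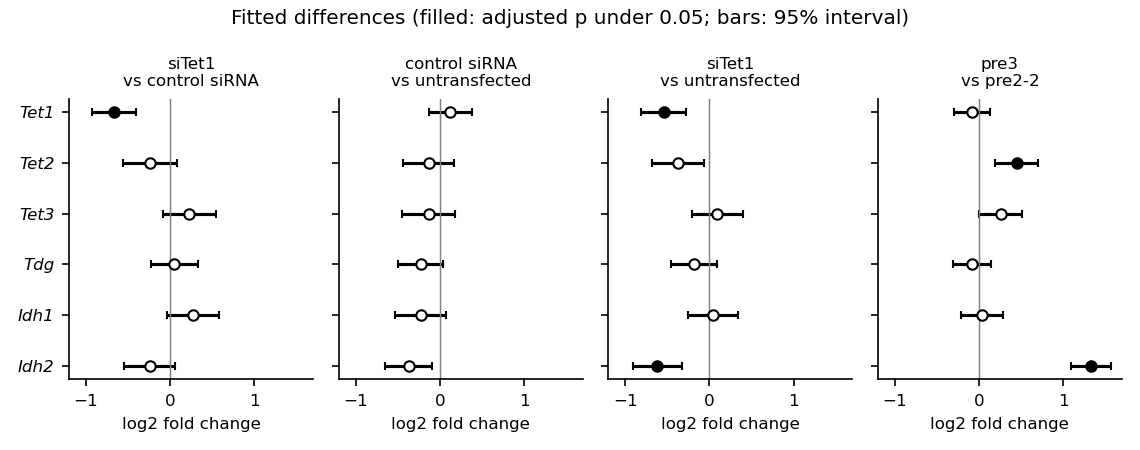
Log2 difference of each gene (horizontal axis, genes down the page) in the comparisons of treatments and of lines, with 95% intervals from the edgeR fit and filled points for genes called at an adjusted p under 0.05. Tet1 lies at -0.67 for siTet1 against control siRNA and Idh2 at 1.33 for pre3 against pre2-2.

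The balance of the 2 isocitrate dehydrogenases lay apart between the lines, with Idh1 the smaller share in pre3. Idh1 made up 30.9% of the summed TPM of Idh1 and Idh2 with siTet1, 24.6% with control siRNA and 20.8% in untransfected cells of pre3, and 51.3%, 41.4% and 42.6% in pre2-2 in the same order. All 3 pre3 shares lay below all 3 pre2-2 shares, with means of 25.4 ± 5.08% in pre3 and 45.1 ± 5.39% in pre2-2 (SD, n = 3 each, two-sided exact permutation p = 0.1, the smallest 3 against 3 can give). The 3 libraries of a line differed in treatment, which the test does not pair, so the SD includes treatment differences. Put as a ratio, Idh2 was 2.24, 3.07 and 3.80 times Idh1 in pre3 with siTet1, with control siRNA and in untransfected cells, and 0.951, 1.42 and 1.35 times Idh1 in pre2-2. Between the lines Idh1 itself differed by 0.04 and Idh2 by 1.33, as above.

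Ordered by median TPM over the 6 libraries, Idh2 came first at 142 TPM, followed by Tdg at 90.2, Idh1 at 76.6, Tet1 at 31.9, Tet2 at 19.5 and Tet3 at 15.3 TPM. The Idh2 median lies in the gap between its lines. In pre2-2, Tdg was above Idh2 with siTet1 and in untransfected cells, and Idh1 was above Idh2 with siTet1. The ranges of Idh2 and Tdg overlapped, as did those of Tet1 and Tet2 and of Tet2 and Tet3. Tdg and Idh1 were set apart by less than 1 TPM, with the lowest Tdg library at 86.2 TPM and the highest Idh1 library at 86.0 TPM. Idh1 and Tet1 were clearly apart, since the lowest Idh1 library had 67.6 TPM and the highest Tet1 library 36.9 TPM.

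**Figure D4:**
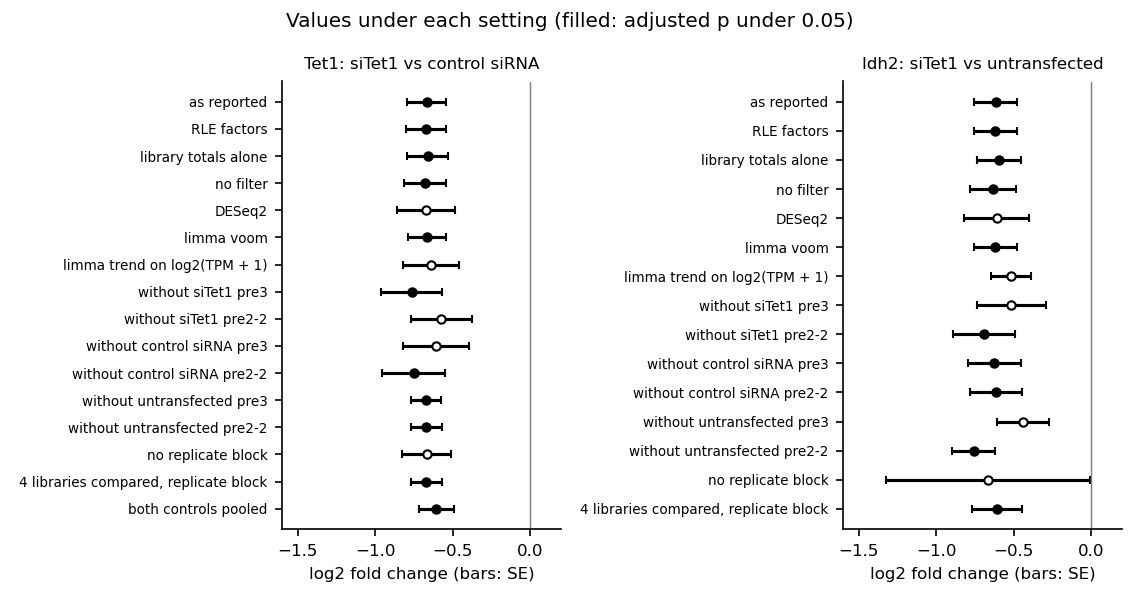
Log2 difference of Tet1 (siTet1 against control siRNA) and of Idh2 (siTet1 against untransfected) under each setting (horizontal axis), with bars for the SE and filled points for calls. All values were below 0, from -0.76 to -0.57 for Tet1 and from -0.76 to -0.44 for Idh2.

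Genes that act around these enzymes were read from 3 lists. Of 23 genes of base excision repair and other demethylation routes 21 were tested, and with siTet1 edgeR called 0 of them against either control. At an unadjusted p under 0.05 there were 2 against control siRNA and 3 against untransfected cells. Of all 11048 genes tested, 1196 and 2157 were under 0.05 in these comparisons. DESeq2 and limma voom also called 0. The median difference was -0.11 against control siRNA and -0.18 against untransfected cells, where the medians of all genes were 0.00 and 0.01. Between control siRNA and untransfected cells 1 was called, Gadd45g, a stress-induced gene linked to DNA repair, which rose by 1.51 (SE 0.35, adjusted p = 0.0198). Gadd45g stood at 7.46 CPM in pre3 and 42.5 CPM in pre2-2 with control siRNA, and at 5.13 CPM in pre3 and 11.7 CPM in pre2-2 untransfected, so its rise lay mainly in pre2-2, and it was not called without the pre2-2 control siRNA library (0.34) or the pre2-2 untransfected library (1.20). Its call was also lost with DESeq2 (adjusted p = 1.00), with limma on log2(TPM + 1) (adjusted p = 0.270) and in a model of treatment alone (adjusted p = 1.00).

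Between the lines 10 of the 21 genes of base excision repair and other demethylation routes were called. Of the 10, 9 were higher and 1 lower in pre3. The list's median was 0.21, where that of all genes was 0.00. The calls made up 47.6% of the list, against 30.2% of all genes, and no test was made of that difference. Parp1, which binds DNA breaks, was 0.48 higher in pre3 (SE 0.08, adjusted p = 8.73e-05), at 584, 608 and 653 CPM in pre3 and 398, 430 and 498 CPM in pre2-2 with siTet1, with control siRNA and untransfected. Gadd45a was 0.94 higher (SE 0.21, adjusted p = 0.000963), Neil3, a DNA glycosylase, 0.89 higher (SE 0.22, adjusted p = 0.00307), Gadd45b 0.64 higher (SE 0.18, adjusted p = 0.00858) and Xrcc1, the scaffold of single-strand break repair, 0.41 higher (SE 0.12, adjusted p = 0.00787). Gadd45g, the 1 gene that was lower, differed by -1.52 (SE 0.30, adjusted p = 0.000305). Neil3 and Gadd45g lost their calls without either control siRNA library, and Gadd45b and Xrcc1 without either siTet1 library. DESeq2 called 2 of the 21.

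Of 19 partners and regulators of TET proteins 13 were tested. With edgeR 0 were called for siTet1 against control siRNA (1 at an unadjusted p under 0.05), 0 for siTet1 against untransfected cells (2) and 0 for control siRNA against untransfected cells (0), and DESeq2 and limma voom called 0 in each. Of all 11048 genes, edgeR put 1196, 2157 and 1016 under an unadjusted p of 0.05, in the same order. Dppa3, which shields methylated DNA from TET3 in the zygote, had 0 counts in all 6 libraries, and Lin28a and Prdm14 had at most 2. Between the lines 2 of the 13 were called, which is 15.4% of the list, against 30.2% of all genes. Cul4a, a ubiquitin ligase scaffold, was 0.72 higher in pre3 (SE 0.11, adjusted p = 2.46e-05), and Ebf1, a transcription factor of B cells, differed by -2.14 (SE 0.61, adjusted p = 0.00891). Ebf1 was at 2.13, 1.07 and 0.513 CPM in pre3 and 5.15, 6.58 and 5.05 CPM in pre2-2 with siTet1, with control siRNA and untransfected, levels of few counts, and its call ended without either control siRNA library. The Ebf1 call was also lost with DESeq2 (adjusted p = 0.0976), which called 1 of the 13.

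Of 36 genes that supply or use 2-oxoglutarate 34 were tested. Psat1, the phosphoserine aminotransferase of serine synthesis, which releases 2-oxoglutarate, was the 1 gene called for siTet1, which is 2.94% of the list, against 1.58% of all genes in the comparison with control siRNA and 6.55% in that with untransfected cells. It stood at 216 CPM in pre3 and 145 CPM in pre2-2 with siTet1, at 349 and 225 CPM with control siRNA, and at 397 and 304 CPM in untransfected cells, the lowest of its line with siTet1 in both lines. Psat1 fell by 0.67 against control siRNA (SE 0.12, adjusted p = 0.00256). Against untransfected cells it fell by 0.97 (SE 0.12, adjusted p = 1.43e-05). The call against control siRNA needed the pre2-2 siTet1 library (-0.62 without it) and the pre3 control siRNA library (-0.60 without it), and it was lost with limma on log2(TPM + 1) (adjusted p = 0.0514), whereas that against untransfected cells held without each library in turn, at -1.1 to -0.86. With no term for the line neither was called (adjusted p = 1.00 and 0.991). The list's median was -0.07 and -0.11 in these comparisons, where the medians of all genes were 0.00 and 0.01. Between control siRNA and untransfected cells edgeR, DESeq2 and limma voom called 0 of the 34, with 2, 0 and 3 at an unadjusted p under 0.05. Of all 11048 genes, 1016, 258 and 1081 were under 0.05 with these tools.

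Between the lines 13 of the 34 were called, 12 higher and 1 lower in pre3, which is 38.2% of the list, against 30.2% of all genes. Gpt2, the mitochondrial alanine aminotransferase, was 1.56 higher (SE 0.17, adjusted p = 1.21e-07), at 57.4, 82.1 and 97.5 CPM in pre3 and 30.9, 20.2 and 28.4 CPM in pre2-2 with siTet1, with control siRNA and untransfected. Ornithine aminotransferase (Oat) was 0.73 higher (SE 0.11, adjusted p = 1.68e-05), the cytosolic aconitase Aco1 0.65 higher (SE 0.12, adjusted p = 0.000154), fumarase (Fh1) 0.53 higher (SE 0.11, adjusted p = 0.000673) and Psat1 0.53 higher (SE 0.10, adjusted p = 0.000153). Bcat1, the cytosolic branched-chain aminotransferase, was the 1 gene lower in pre3, by -0.48 (SE 0.09, adjusted p = 0.00022). These 6 calls held without each library in turn, that of Psat1 was lost with the line alone in the model (adjusted p = 0.198), and DESeq2 called 8 of the 34.

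**Figure D5:**
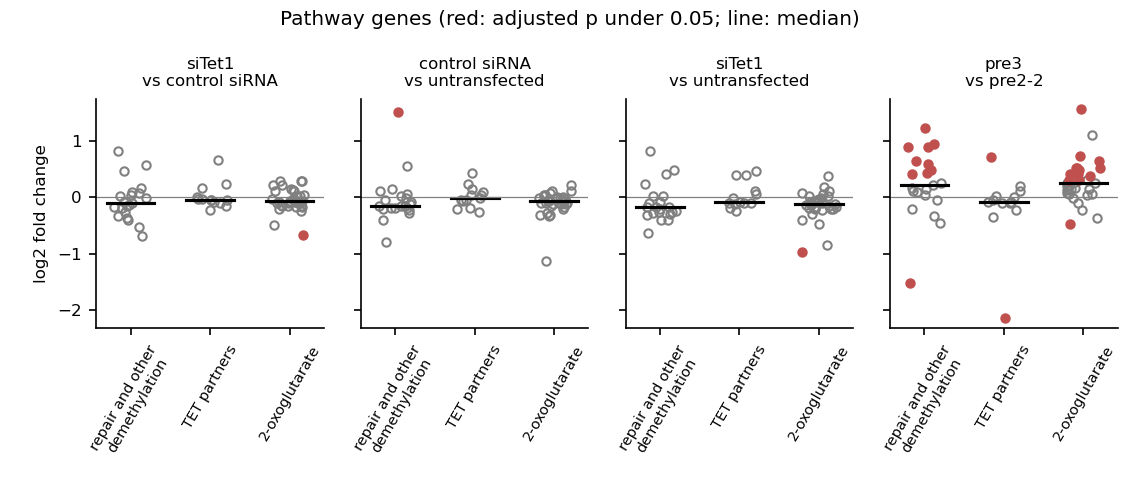
Log2 differences of the genes of the 3 lists (1 point per gene, vertical axis) in the 4 comparisons of treatments and lines. Most points lie near 0 for the treatments, Psat1 lies at -0.67 and -0.97 with siTet1, and Gpt2 lies at 1.56 for pre3 against pre2-2.

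The genes whose log2 CPM followed each member most closely were taken from 9501 genes with a mean CPM of at least 10, by Pearson's r over the 6 libraries. As the highest of so many, these coefficients are high by selection, the libraries share 2 lines, and they are given as a description. Tet1 was followed by Gtf3c5 (r = 0.995), a subunit of the general factor TFIIIC, by Cdc42 (0.989), a small GTPase, and by Kpna2 (0.984), a nuclear import factor. Tet2 was followed by Usp31 (0.999), 2810417H13Rik (0.996) and Idh3a (0.996), a subunit of the NAD-dependent isocitrate dehydrogenase. Tet3 was followed by 5730437N04Rik (0.992), Dtx4 (0.991) and Galnt7 (0.990). Tdg was followed by Rps6ka6 (0.987), Rmnd5b (0.980) and 2810004N23Rik (0.962), and Idh1 by Ier2 (0.978), Ctu2 (0.975) and Prkaa2 (0.970).

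Idh2 was followed by Atp5d (0.997), a subunit of ATP synthase, Uqcc (0.996), an assembly factor of respiratory complex III, and Pdk1 (0.996), a kinase that restrains pyruvate dehydrogenase. Pdk1 stood at 161, 213 and 270 CPM in pre3 and 79.2, 87.6 and 100.2 CPM in pre2-2 with siTet1, with control siRNA and untransfected. With Idh2, 264 genes had an r over 0.95 and with Tet2 154, against 53 for Tet3, 17 for Tet1, 11 for Idh1 and 7 for Tdg. Among the 6 genes, Tet2 and Idh2 had an r of 0.90, and Tet1 and Idh1 one of -0.73. Both Idh2 and Tet2 differed between the lines, as 30.2% of all genes did.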

How the data were processed

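RNA was extracted with Trizol and made into TruSeq libraries, per the labels' protocols. The 6 samples were deposited as 1 table each, made with RSEM 1.1.21 on mm9, per the submitters' processing notes; the aligner settings are not given in the sources used here. The authors deposited expected counts per gene, which are not normalized, and the fraction of transcripts per gene, which was scaled to TPM. Between 18.7 and 21.4% of counts were not whole (tolerance 0.005). A series-wide table of 6 columns, 1 of which matched no sample title, was not used.

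Counts, rounded to whole numbers, entered edgeR 4.0.16 under R 4.3.3. TMM scaling had factors of 0.982 to 1.01, filterByExpr used a minimum count of 10 with treatments as groups, and the test was the quasi-likelihood test with line and treatment in the model, two-sided, with Benjamini-Hochberg adjustment over 11048 genes. The common dispersion was 0.00755, with 23.2 prior and 2 residual degrees of freedom. DESeq2 1.42.0 and limma 3.58.1 are named where used, and other adjusted p-values are edgeR's. The line served as the replicate block, because the sample titles name the cell line of each library. Deviations of same-line libraries from their treatment means correlated at 0.667 to 0.772. Shares and the TET sum were tested with an exact permutation test over libraries, which paired neither lines nor treatments. The edgeR fit was also run on counts simulated from its own fitted dispersions, which cannot show whether those dispersions suit these libraries. Counting intervals and the floor of 3 counts cover counting error only.

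The 6 genes and the lists were chosen with earlier results of these data known. Every member is named; of each list, genes called in a comparison are named, up to the 6 with the smallest adjusted p, and for each member the 3 genes with the highest r. The files' build differs from the reference's, so mm9 coordinates are not given, and promoter windows are RefSeq's on GRCm38.p6. Alternatives were other scalings (RLE, library totals), no filter, other tools, other models, fewer libraries and counts in place of TPM.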

Additional observations from a re-analysis of the deposited data

Results flagged for a closer look

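Between control siRNA and untransfected cells, the sign of the Tet1 difference was not the same in the lines, and nor was that of Tet2. Tet1 differed by 0.32 in pre3 and by -0.02 in pre2-2, a difference between the lines of 0.333 on the log2 scale. Tet2 differed by 0.07 in pre3 and by -0.33 in pre2-2, a difference of 0.397. Each line had 1 library per treatment, so these differences were not tested, and the counting intervals of Tet1 in pre2-2 (-0.19 to 0.15) and of Tet2 in pre3 (-0.21 to 0.35) include 0. No group held 4 or more libraries, so single libraries were not screened as outliers.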

How the results depend on the processing

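Scaling by RLE or by library totals and limma voom kept every call among the 6 genes. For siTet1 against control siRNA, the 175 genes called became 613 from the 4 libraries with the line as replicate block, 114 with both controls pooled, 24 with DESeq2, 33 with limma on log2(TPM + 1), 292 with no filter, 0 with no replicate block (178 at an unadjusted p under 0.05) and 34 to 632 on leaving out 1 library. For siTet1 against untransfected cells, 724 became 85, 195, 0 (353) and 172 to 1900 with DESeq2, limma, no replicate block and 1 library left out; for control siRNA against untransfected cells, 164 became 32, 32, 0 (84) and 27 to 733, and 259 with no filter. For pre3 against pre2-2, 3335 became 1429 with DESeq2, 2061 with the line alone and 2152 to 3631 with 1 library left out. The interaction gave 7 with no filter and 0 to 5 with 1 library left out, and it could not be fitted without either siTet1 library. The cause of these shifts was not tested.

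Without the replicate block, Tet1 was at -0.67 against control siRNA and -0.54 against untransfected cells and Idh2 at -0.67 against untransfected cells; DESeq2 gave -0.67, -0.54 and -0.61 and limma on log2(TPM + 1) gave -0.64, -0.45 and -0.52 for the same 3, all without a call. With 1 library left out these ran from -0.76 to -0.57, from -0.71 to -0.37 and from -0.76 to -0.44. Tet2 between the lines was 0.44 with DESeq2, 0.36 with limma, 0.45 with the line alone and 0.33 to 0.54 with 1 library left out; Idh2 was 1.52 in the untransfected libraries alone.

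Signs turned only for values that were not called. Tdg for siTet1 against control siRNA was -0.073 with both controls pooled and Idh1 between the lines -0.040 with limma. With 1 library left out, the ranges were -0.079 to 0.15 for Tdg (siTet1 against control siRNA), -0.0053 to 0.085 for Idh1 (siTet1 against untransfected), -0.042 to 0.30 for Tet1 and -0.32 to 0.034 for Tet2 (control siRNA against untransfected), and -0.13 to 0.039 for Tet1 between the lines. In the interaction they were -0.22 to 0.028 for Idh1, -0.39 to 0.10 for Idh2, -0.25 to 0.11 for Tdg and -0.28 to 0.052 for Tet2. The TET sum ran from -2.41 to 8.91 TPM (control siRNA minus untransfected) and from -1.23 to 7.85 TPM (pre3 minus pre2-2), the Tet1 share from -0.17 to 9.49 percentage points (control siRNA minus untransfected), and the Idh1 share from -2.09 to 18.3 (siTet1 minus control siRNA), -9.62 to 12.1 (control siRNA minus untransfected) and -1.52 to 20.2 (siTet1 minus untransfected).

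Depth limits the TET genes, with 124 to 644 expected counts in a library, and each line and treatment had 1 library.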
